A study of Mus musculus with 12 samples.

Results

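The ETS transcription factors examined here were 10 genes of a table of 16411. They were chosen by name: Etv1, Etv4 and Etv5, which form the PEA3 group, and beside them Ets1, Ets2, Elk1, Elk3, Etv6, Gabpb1 and Elf1. Earlier results of these data were known when they were chosen. All 10 members had a row in the table and all 10 passed the filter on low counts. RNA from 6 mammary tumors was compared with RNA from 6 samples of benign mammary tissue, every one from a mouse carrying the MMTV-Neu-NDL-YD5 transgene. The mice were females on an FVB background and heterozygous for the transgene, in which a mammary tumor virus promoter drives an activated form of the rat HER2 receptor (Neu) in the mammary epithelium. NDL names the activating deletion, and YD names the single autophosphorylation site put back, which couples the receptor to SHC and GRB2. Benign tissue was mammary gland without a visible tumor, taken from mice of the same line, so the controls carried the transgene too, and no mouse gave both a tumor and a benign sample. The labels give no age. No sample was without the transgene, and the comparison is between whole tissues.

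ETS factors share a DNA-binding domain that reads a short GGAA core. The PEA3 group are activators that ERK, the last kinase of the RAS/MAPK cascade downstream of HER2, switches on by phosphorylation, and they are known for roles in branching of the mammary gland and in tumor invasion. Their genes are themselves induced by RAS/MAPK signaling and are repressed by Capicua (Cic), a DNA-binding repressor that ERK disables, while the ligase subunits COP1 and DET1 mark the PEA3 proteins for degradation. Ets1 and Ets2 are the founding members of the family, Elk1 and Elk3 are ternary complex factors that bind DNA beside serum response factor, Etv6 is a repressor, and Elf1 acts in blood and endothelial cells among others. Gabpb1 has no ETS domain: it is the partner that gives the ETS protein GABPA its activation domain.

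Of the 10 members, 5 were higher in tumors (Etv1, Etv4, Etv5, Etv6 and Gabpb1), 3 were lower (Ets1, Ets2 and Elk3), and Elk1 and Elf1 were not called different. All 3 PEA3 genes were among the higher ones, with log2 fold changes from 1.97 to 6.02 and a median of 3.83, and their tumors lay above every benign sample. The other 7 members spread from -1.69 to 0.93 with a median of 0.09, of which 2 were higher and 3 were lower. Calls were made with edgeR's quasi-likelihood test and read at 0.1 after adjustment over all genes. Over all 13191 genes tested, 28.2% were called higher and 34.8% lower, and the median log2 fold change was -0.06. Tumors lay above every benign sample for 4 members and below every benign sample for 2, against 14.7% and 21.2% of all genes tested. With 10 members, the number called lower (3) was near the background share.

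Levels below are CPM (counts scaled to library size) after TMM scaling, given for the samples in the order 1 to 6 of the labels, whose numbers do not pair tumors with benign samples. Libraries held between 5240853 and 8588567 counts, so 1 count was worth 0.110 to 0.184 CPM, and each member had at least 20 counts in every sample. Several benign samples stood apart. The summed level of 8 lymphocyte markers was 873 CPM in benign sample 1, 5.68 to 16.1 CPM in the other benign samples and 1.02 to 11.1 CPM in tumors. The summed level of 5 skeletal muscle markers was 34608, 23497 and 58419 CPM in benign samples 3, 4 and 6 and 14.1 to 266 CPM in the other 3, and it was 0.722 to 95.9 CPM in tumors. The summed level of 7 epithelial markers rose from 1553 ± 542 to 3594 ± 619 CPM (means ± SD, n = 6 per group), with 5 of 7 called higher and Krt19 lower. All 6 endothelial markers fell, and their sum was 564 to 1062 CPM in benign tissue and 82.8 to 103 CPM in tumors. Adipocyte (5 of 5), fibroblast (4 of 4) and basal (5 of 5) markers were all lower, and 4 of 5 macrophage markers were lower. Of 2 brown fat markers both were lower, with a sum of 2308 CPM in benign sample 4 and 17.6 to 533 CPM in the other benign samples. Of 4 nerve markers 2 were higher and 1 was lower. In tissues of such different makeup, fewer cells of a type and less RNA per cell cannot be told apart, and the part of cell makeup in the results below was not tested.

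The sequence just before a start site of the most increased pair, Etv1 and Etv5, is shown because both are described as genes that Capicua represses. Each run is the 250 bases upstream of a RefSeq start in GRCm38.p6, written 5′ to 3′ on the strand of the gene. Etv1 is read from chr12:38779832-38780081 on the plus strand and Etv5 from chr16:22438369-22438618 on the minus strand, and both windows lie inside the span of their gene but overlap no exon of a protein-coding transcript in GENCODE M21. Capitals mark TGAATG, the core of the Capicua site, or its reverse complement CATTCA.
Etv1: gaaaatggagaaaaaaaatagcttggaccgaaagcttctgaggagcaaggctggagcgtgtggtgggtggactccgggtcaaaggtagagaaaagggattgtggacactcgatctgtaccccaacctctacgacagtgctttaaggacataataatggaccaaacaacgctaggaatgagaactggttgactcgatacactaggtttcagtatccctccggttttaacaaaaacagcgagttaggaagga
Etv5: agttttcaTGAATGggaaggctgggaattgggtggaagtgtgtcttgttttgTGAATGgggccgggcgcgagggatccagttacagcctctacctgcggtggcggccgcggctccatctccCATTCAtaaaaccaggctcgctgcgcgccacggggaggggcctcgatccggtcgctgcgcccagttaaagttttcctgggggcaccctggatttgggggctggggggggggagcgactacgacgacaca
Both genes have a second window in that table, which overlaps exons and is not printed. The printed Etv5 window held 3 matches to TGAATG, and the printed Etv1 window and the second window of each gene held 0. It was the only 1 of the 12 windows that 8 of the members had in the RefSeq table with a match. This motif was searched after longer motifs had been searched, and it was chosen after the sequences had been seen. Over 32851 windows of the same length before the starts of all genes, 10.9% held at least 1 match on either strand and 0.131% held 3 or more. That cutoff of 3 equals the count in the printed Etv5 window, so the 0.131% is a description and not a test. The longer forms TGAATGAA and TGAATGGA, which hold TGAATG (2.07% of windows), the ETS motif CCGGAAG (6.91%) and the CRE motif TGACGTCA (1.55%) were each found in 0 of the 12 windows. The AP-1 motif TGANTCA was in 1 of the 12, a window of Elf1 (6.75% of all windows). The short core GGAA was in 10 of the 12 and in 93.4% of all windows, with 2 matches in the Etv1 window and 4 in the Etv5 window, and every CCGGAAG match holds one. These matches are letters in a window and say nothing of binding. Etv4 and Ets1 were not among those 8.

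Etv1, a PEA3 activator known from translocations in sarcoma and prostate cancer, lies at chr12:38779380-38870484 (GRCm38, the build named in the labels as mm10). Its level was 8.52, 9.79, 4.35, 3.56, 9.12 and 8.52 CPM in benign tissue and 585, 361, 390, 527, 499 and 495 CPM in tumors. The lowest tumor was 36.9 times the highest benign sample, so the groups were far apart. The means were 7.31 ± 2.65 and 476 ± 84.8 CPM (SD, n = 6 per group), a ratio of 65.1. The log2 fold change was 6.02 (SE 0.29, adjusted p = 5.4e-09 by edgeR), and 0.227% of all genes tested had a higher one. The exact permutation test over all regroupings of the samples gave p = 0.00216 (two-sided), the smallest it can give for 6 against 6.

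Etv5, the PEA3 member known for its role in germline stem cells and lung branching, lies at chr16:22381309-22439719 on the minus strand. Benign samples had 36.5, 42.1, 60.9, 22.8, 55.8 and 21.1 CPM, and tumors had 573, 501, 670, 546, 428 and 685 CPM. Benign samples 3 and 5 were the highest of their group and still far below the lowest tumor, which was 7.02 times the highest benign sample. The means were 39.9 ± 16.5 and 567 ± 98.8 CPM, a ratio of 14.2, with a log2 fold change of 3.83 (SE 0.28, adjusted p = 1.8e-07). The exact permutation test gave p = 0.00216.

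Etv4, the gene for which the PEA3 group is named, lies at chr11:101769742-101785371 on the minus strand. Its benign values were 6.85, 9.31, 36.0, 9.62, 34.7 and 6.21 CPM and its tumor values 67.2, 51.6, 54.9, 44.0, 119 and 68.2 CPM. Benign samples 3 and 5 stood well above the other 4, and tumor 5 was the highest tumor. The lowest tumor (tumor 4) was 1.22 times the highest benign sample, so the groups did not overlap but came close. The means were 17.1 ± 14.2 and 67.4 ± 26.8 CPM, a ratio of 3.94, with a log2 fold change of 1.97 (SE 0.47, adjusted p = 0.0033). The exact permutation test gave p = 0.00216.

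**Figure D1:**
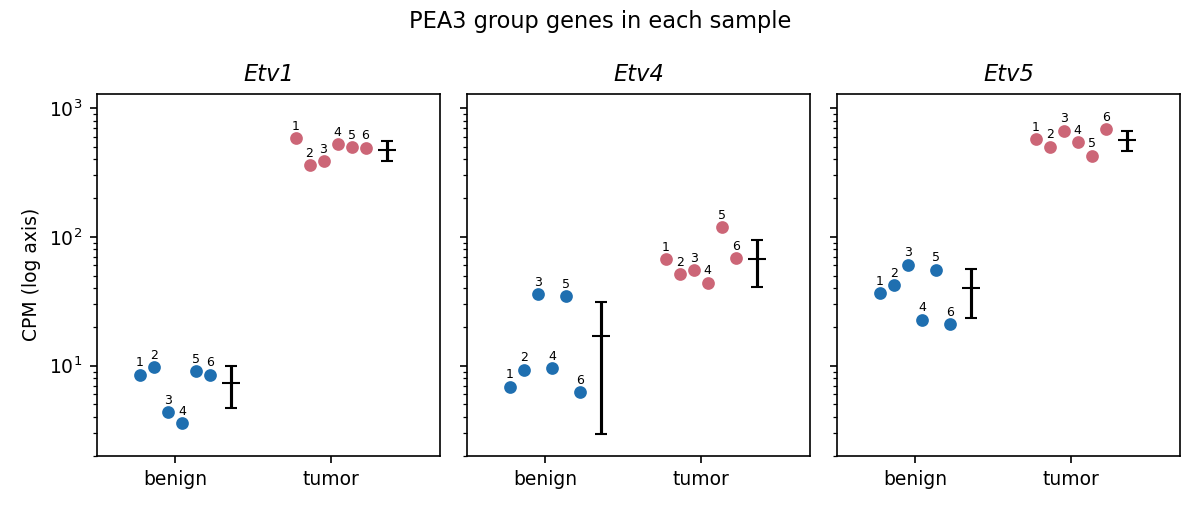
Level of Etv1, Etv4 and Etv5 in each of the 6 benign samples and 6 tumors, as CPM on a log axis. Points are samples, numbered as in the labels, and the black marks are the mean with its SD. Every tumor lies above every benign sample in all 3 panels, with the widest gap for Etv1, where tumors span 361 to 585 CPM, and benign samples 3 and 5 are the highest benign samples for Etv4 and Etv5.

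Relative to the summed level of the epithelial markers, a scale added after the data had been seen, Etv1 was still higher in tumors by 4.84 and Etv5 by 2.66 on the log2 scale (exact permutation test, p = 0.00216 for each, n = 6 per group). Etv4 was higher by 1.03 on that scale (exact permutation test, p = 0.0476), with overlapping groups (-7.62 to -5.30 in benign tissue, -6.46 to -5.17 in tumors). Within the sum, Epcam (log2 fold change 2.24) and Cldn3 (2.03) rose by more than Etv4 (1.97). The other markers in it did not, and Krt19 fell (-4.74). The epithelial sum itself was higher by 1.27 on the log2 scale (exact permutation test, p = 0.00216). A gene with an unchanged level is therefore lower by about as much relative to that sum.

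To compare genes with each other, levels were divided by the length of the coding transcripts' exons (CPM per kb). In benign tissue the order was Ets2 (35.5), Ets1 (24.7), Elk3 (16.8), Elf1 (15.7), Etv6 (13.3), Etv5 (9.90), Etv4 (7.13), Elk1 (6.38), Gabpb1 (4.01) and Etv1 (1.01 CPM per kb). Neighbours in that order differed by less than the sum of their SDs, except that Elk1 exceeded Gabpb1 and Gabpb1 exceeded Etv1 by more. In tumors Etv5 was first (141), followed by Etv1 (66.1), Etv4 (28.1), Ets2 (25.9), Etv6 (25.4), Elf1 (20.4), Elk3 (7.92), Ets1 (7.66), Elk1 (6.79) and Gabpb1 (5.17 CPM per kb). Gaps larger than the summed SDs stood between Etv5 and Etv1, between Etv1 and Etv4, and between Elf1 and Elk3. Etv1 therefore moved from the last place of the 10 to the second. With the length of the longest coding transcript, Gabpb1 moved to 7.23 CPM per kb in benign tissue and 9.33 in tumors, in 7th place in both, and the places of the 3 PEA3 genes in tumors did not change.

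The PEA3 genes made up 13.7% ± 7.2 of the summed level per kb of the 10 members in benign tissue (6.57% to 24.3%) and 70.2% ± 3.7 in tumors (63.7% to 73.7%; SD, n = 6 per group). The lowest tumor share was above the highest benign share. The sum of the other 7 members was 116 ± 36.7 CPM per kb in benign tissue and 99.2 ± 9.15 in tumors, while the sum of the PEA3 genes went from 18.0 ± 9.67 to 235 ± 24.7. Within the PEA3 group, Etv1 made up 6.99% ± 4.04 in benign tissue and 28.1% ± 4.20 in tumors, and Etv4 made up 35.4% ± 12.02 and 12.04% ± 5.01. Etv5 held a similar share in both, 57.6% ± 9.01 and 59.8% ± 7.36. These shares follow from levels given above and were not tested.

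**Figure D2:**
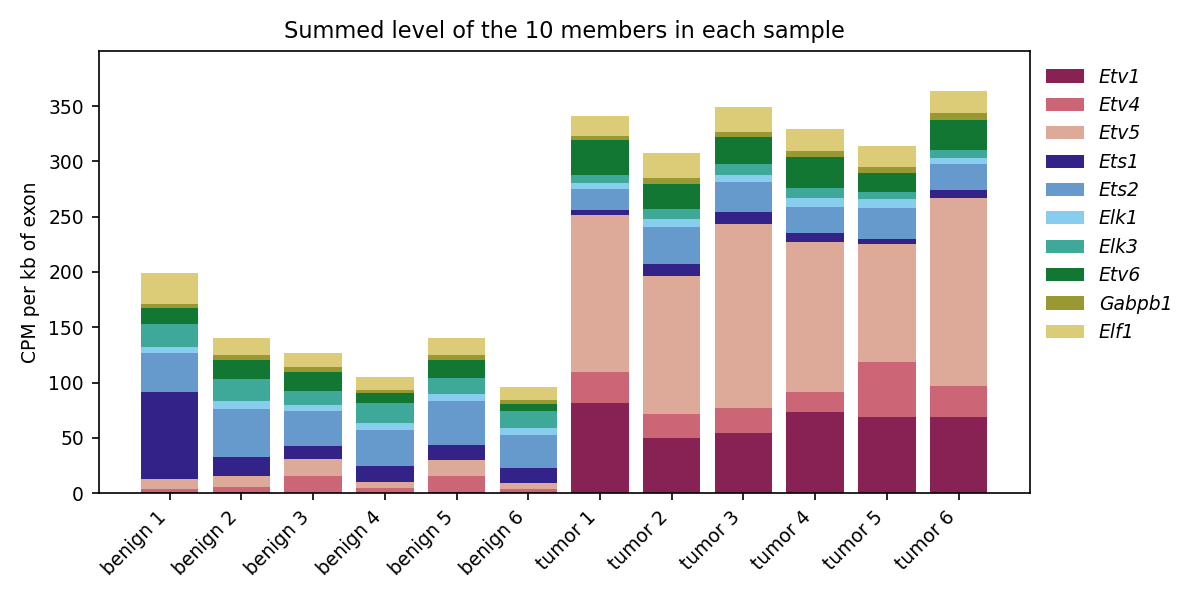
Summed level of the 10 members in each of the 12 samples, as CPM per kb of exon, stacked by gene from a baseline of 0, with the 3 PEA3 genes at the bottom in red shades. The PEA3 part is 9.01 to 30.7 CPM per kb in benign samples and 196 to 267 CPM per kb in tumors, while the rest of each bar is 87.3 to 186 and 88.7 to 112 CPM per kb.

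Etv6, a repressor best known from leukemia fusions, was the most increased of the other members and lies at chr6:134035700-134270158. Benign samples had 80.4, 97.2, 96.4, 49.0, 94.1 and 37.1 CPM and tumors had 180, 132, 140, 161, 99.9 and 157 CPM. The groups did not overlap, but tumor 5 was only 1.03 times benign sample 2. Benign samples 4 and 6 were the lowest, while sample 3, which like them carried muscle transcripts, was among the highest of its group. Tumors exceeded benign tissue by a log2 fold change of 0.93 (SE 0.24, adjusted p = 0.0047), and the exact permutation test gave p = 0.00216. Relative to the epithelial marker sum it was -0.27 (exact permutation test, p = 0.396), with overlapping groups.

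Gabpb1, at chr2:126627442-126676337 on the minus strand, had 33.5, 30.7, 35.7, 25.3, 33.8 and 20.9 CPM in benign tissue and 32.4, 36.0, 37.1, 39.0, 39.5 and 48.4 CPM in tumors. The groups overlapped through tumor 1, and 5 of 6 tumors were above every benign sample. In log2 terms the change was 0.37 (SE 0.15, adjusted p = 0.047; exact permutation test, p = 0.0152). Without benign samples 3, 4 and 6 it was 0.29 and was no longer called (adjusted p = 0.107), and relative to the epithelial marker sum its direction turned, to -0.89 (exact permutation test, p = 0.00649). Its DNA-binding partner Gabpa rose by 0.24 (SE 0.09, adjusted p = 0.039), and Gabpb2, the other gene for that activation subunit, rose from 50.5 to 91.9 CPM (log2 fold change 0.87, SE 0.21, adjusted p = 0.0038).

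Ets1, an activator abundant in lymphocytes and endothelium, lies at chr9:32636221-32757820. Benign samples had 396, 86.0, 59.4, 71.8, 70.9 and 69.4 CPM and tumors had 24.9, 54.9, 53.3, 40.4, 23.8 and 36.3 CPM. Benign sample 1, the sample with the lymphocyte transcripts, was far above the rest, and every tumor was below every benign sample. The log2 fold change was -1.69 (SE 0.49, adjusted p = 0.0097; exact permutation test, p = 0.00216). Without benign sample 1 it was -0.83 (adjusted p = 0.0078), a smaller fall that was still called. The endothelial markers fell beside it as given above.

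Elk3, a ternary complex factor that represses until ERK phosphorylates it and is known from vessel growth, lies at chr10:93247414-93311135 on the minus strand. Its level was 88.4, 83.7, 52.4, 75.4, 58.7 and 66.7 CPM in benign tissue and 29.0, 36.4, 42.4, 37.4, 27.7 and 27.2 CPM in tumors. Every tumor was below every benign sample, and the means were 70.9 ± 14.1 and 33.4 ± 6.25 CPM. Its log2 fold change was -1.09 (SE 0.16, adjusted p = 8.1e-05; exact permutation test, p = 0.00216), and leaving out any 1 sample kept it between -1.16 and -0.97. Among benign samples, Elk3 was lowest in sample 3, which also had the lowest endothelial sum (564 CPM).

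Ets2, a paralog of Ets1 and a direct substrate of ERK, lies at chr16:95702075-95721051. It had 137, 170, 122, 129, 155 and 115 CPM in benign tissue and 73.6, 131, 107, 94.8, 108 and 89.9 CPM in tumors. The groups overlapped through tumor 2, and the other 5 tumors were below every benign sample. Its log2 fold change was -0.46 (SE 0.14, adjusted p = 0.016; exact permutation test, p = 0.00866). It was the most abundant member per kb in benign tissue and the most abundant outside the PEA3 group in tumors.

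Elk1, the ternary complex factor that ERK activates at serum response genes, lies at chrX:20933395-20950608 on the minus strand. Benign samples had 19.6, 26.5, 21.2, 22.4, 23.3 and 22.5 CPM and tumors had 19.0, 27.4, 21.2, 26.9, 29.2 and 21.1 CPM. The groups overlapped throughout. The log2 fold change was 0.09 (adjusted p = 0.59 by edgeR, exact permutation test p = 0.519). An approximate 95% interval, from the SE and the normal distribution, ran from -0.17 to 0.36. A change of more than 0.36 in either direction lies outside it, but an interval that allows for the small groups would be wider. Relative to the epithelial marker sum it was -1.19 (exact permutation test, p = 0.00216), beside the rise of that sum by 1.27. Whether Elk1 changed within epithelial cells was not tested.

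Elf1, at chr14:79481194-79582494, had 121, 65.9, 53.4, 47.7, 65.7 and 54.3 CPM in benign tissue and 77.8, 99.4, 98.7, 87.7, 81.1 and 86.1 CPM in tumors. The 5 other benign samples were below every tumor, and benign sample 1 was above every tumor. The log2 fold change was 0.38 (SE 0.20, adjusted p = 0.124; exact permutation test, p = 0.0541) and was not called. Without benign sample 1 it was 0.67 and was called (adjusted p = 4.5e-04), and without benign samples 3, 4 and 6 it was 0.13 (adjusted p = 0.614). Relative to the epithelial marker sum it was -0.82 (exact permutation test, p = 0.0108). Elf1 and Wbp4, Elk3 and Cdk17, and on the same strand Elk1 and Uxt overlap in GENCODE M21, and reads of such pairs may be split by the quantification in a way not tested here.

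**Figure D3:**
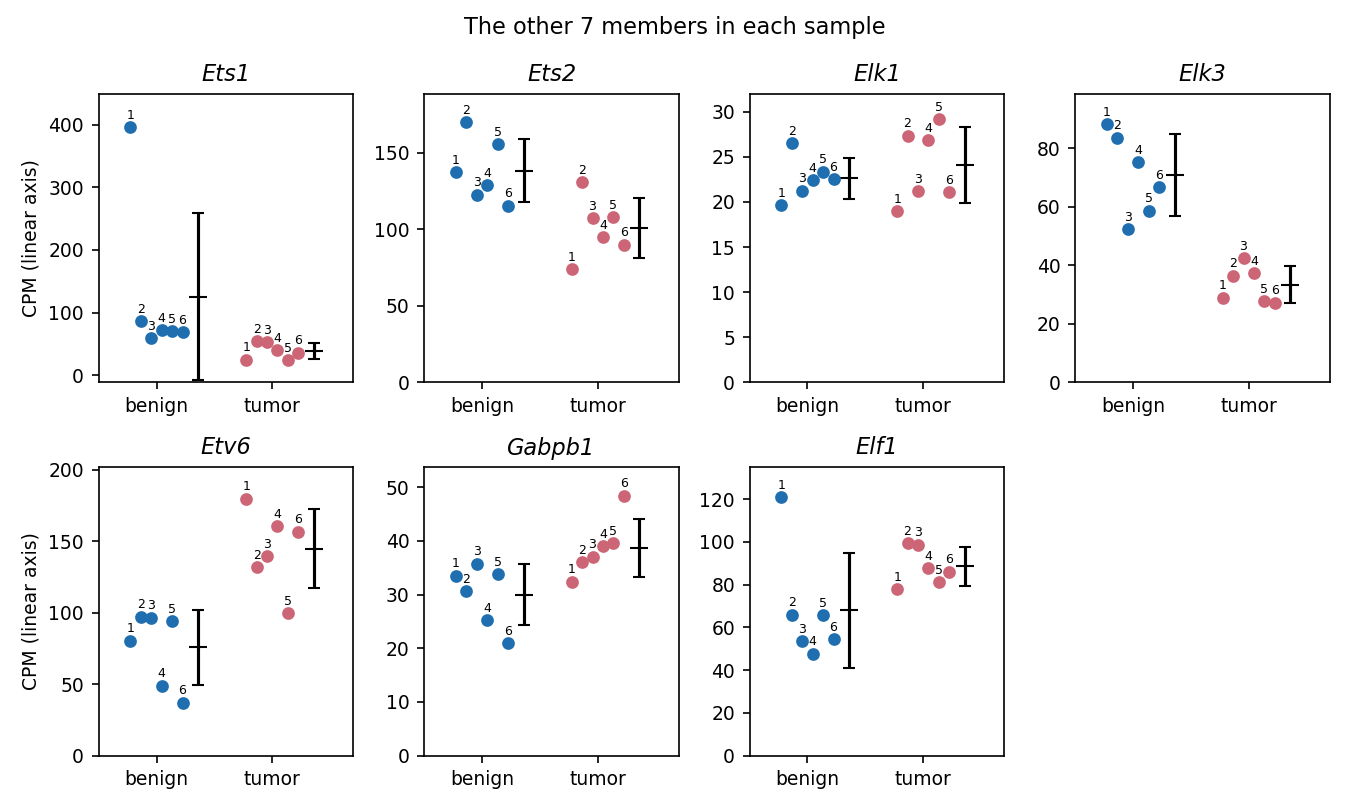
Level of the other 7 members in each sample, as CPM on linear axes that differ between panels and include 0. Points are samples, numbered as in the labels, and the black marks are the mean with its SD. Benign sample 1 lies alone at the top of its group for Ets1 (396 CPM) and Elf1 (121 CPM), tumors lie below all benign samples for Ets1 and Elk3 and above all for Etv6, and Elk1 overlaps throughout.

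The rest of the ETS family was examined beside the members. Of 18 further ETS genes listed, 15 were in the table and 14 were tested, with Spib under the filter on low counts. Of these, 4 were higher in tumors, 5 were lower and 5 were not called, with a median log2 fold change of -0.10, and these counts are near the background shares of 28.2% and 34.8% of all genes tested. The falls were largest for Erg (-3.48, SE 0.26, adjusted p = 1.7e-07) and Fli1 (-3.41, SE 0.26, adjusted p = 2.0e-07), a pair of endothelial and blood cell factors. Erg went from 22.3 to 52.5 CPM over the benign samples to 1.89 to 4.68 CPM over the tumors, and Fli1 from 24.1 to 61.9 CPM to 2.18 to 3.91 CPM, beside the lower endothelial marker sum. Elf4 (-2.12), Spi1 (-1.14) and Elk4 (-0.53) were the other 3 lower genes, named after their values were seen. Benign sample 1 had 81.9 CPM of Elf4 against 17.4 to 23.2 CPM in the other benign samples, and 36.9 CPM of Spi1, the myeloid and B cell factor PU.1, against 7.84 to 14.2 CPM. Without that sample Spi1 fell by 0.61 on the log2 scale (adjusted p = 0.062). Spib, a B cell factor, had 82.4 CPM in benign sample 1 and at most 1.37 CPM in the other benign samples.

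The 4 higher genes were Spdef, Ehf, Elf5 and Gabpa, the last pair named after their values were seen. Spdef, a factor of secretory epithelium, rose by 2.84 (SE 0.82, adjusted p = 0.0096), but its levels were 35.3 and 66.5 CPM in tumors 1 and 5, 1.93 to 9.18 CPM in the other 4 tumors and 1.67 to 4.99 CPM in benign tissue, so the groups overlapped. Ehf, an epithelial ETS factor, rose by 1.69 (SE 0.49, adjusted p = 0.010), from 26.3 to 277 CPM over the benign samples to 280 to 771 CPM over the tumors. Elf5, the factor of the milk-secreting alveolar lineage, rose by 0.90 (SE 0.38, adjusted p = 0.061), with 48.3 to 325 CPM in benign tissue and 214 to 440 CPM in tumors, and lost its call without benign sample 4 (0.78, adjusted p = 0.118). Benign samples 4 and 6 had the lowest Ehf and Elf5, and the epithelial markers rose beside both. No tested ETS gene outside the PEA3 group had a log2 fold change as high as that of Etv5 or Etv1. That of Spdef (2.84) was above that of Etv4 (1.97), the third PEA3 gene, and that of Ehf (1.69) was below it.

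**Figure D4:**
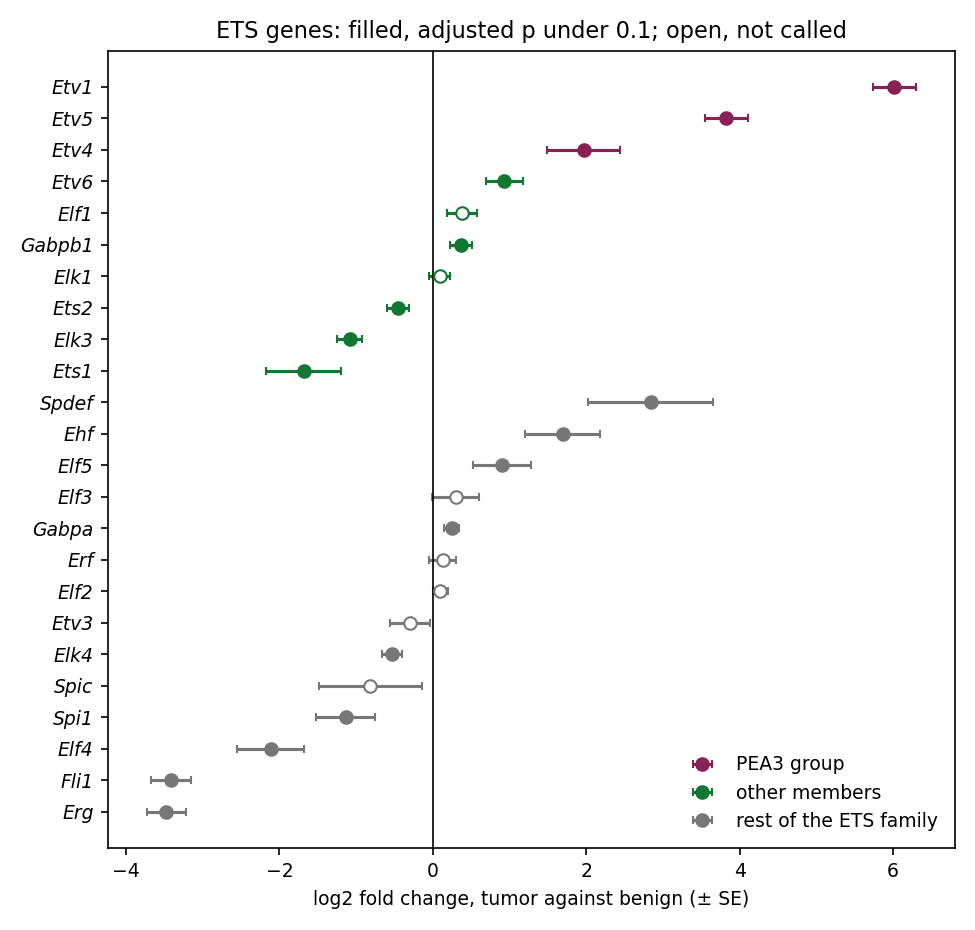
Log2 fold change, tumor against benign, with its SE for the 10 members and the 14 other ETS genes tested, ordered by size within each set. Filled points passed the adjusted p-value of 0.1 in edgeR's test and open points did not. Etv1 and Etv5 lie farthest to the right at 6.02 and 3.83, and Erg and Fli1 farthest to the left at -3.48 and -3.41.

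Erbb2, the gene for HER2 whose row does not separate transgene from mouse transcripts, was 44.8 to 73.7 CPM in benign tissue and 8790, 4037, 16634, 1989, 6808 and 6207 CPM in tumors 1 to 6. Across the 6 tumors, where it varied 8.36-fold, Etv1 varied 1.62-fold, Etv5 1.60-fold and Etv4 2.70-fold. The correlation of log2 CPM with Erbb2 was r = -0.18 for Etv1 (Spearman's rho 0.03), 0.35 for Etv4 (rho 0.49) and 0.37 for Etv5 (rho 0.31), with exact permutation p = 0.742, 0.489 and 0.475 for r and 1, 0.356 and 0.564 for rho. Over the 10 members r lay between -0.59 (Elk1) and 0.37, and the adjusted p-value was 0.997 for every r and 1 for every rho (exact permutation over 720 pairings, Benjamini-Hochberg over 10). Without tumors 3 and 4, the farthest from the median of Erbb2, 4 tumors were left, too few for a test. Over these r was 0.99 for Etv1, 0.49 for Etv4 and 0.16 for Etv5, and -0.99 for Elf1, -0.92 for Ets1, -0.90 for Ets2, -0.79 for Elk3, -0.60 for Elk1, -0.18 for Gabpb1 and 0.33 for Etv6. No relation between a member and Erbb2 within tumors was detectable with 6 tumors.

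**Figure D5:**
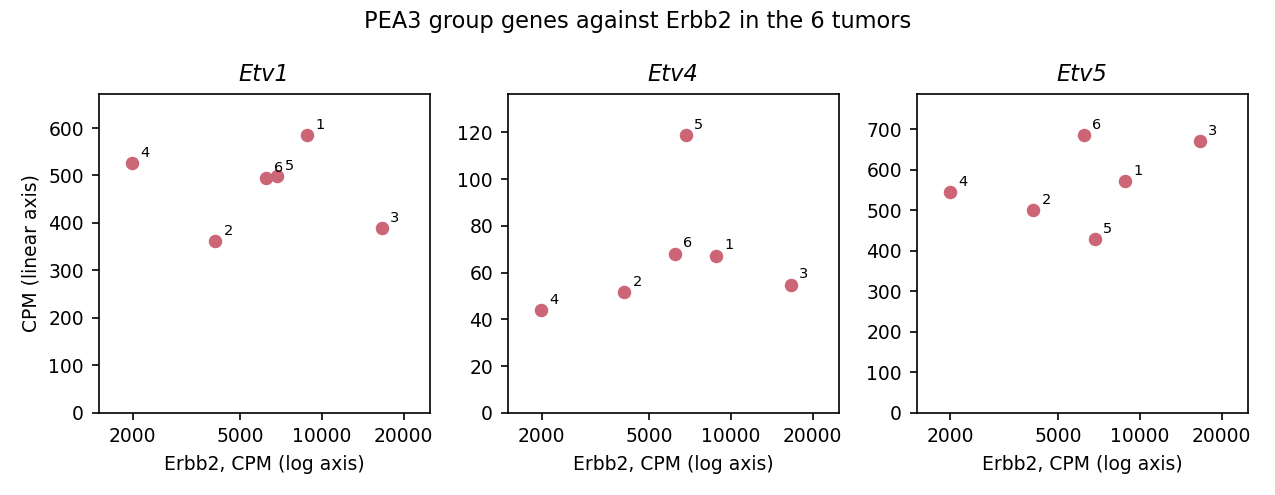
Level of Etv1, Etv4 and Etv5 (CPM, linear axes from 0) against Erbb2 (CPM, log axis) in the 6 tumors, numbered as in the labels. Erbb2 spans 1989 CPM in tumor 4 to 16634 CPM in tumor 3, and in these tumors Etv5 is 546 and 670 CPM, Etv4 44.0 and 54.9 CPM, and Etv1 527 and 390 CPM.

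The genes that restrain the PEA3 group were looked at next. Cic had 142 to 221 CPM in benign tissue and 154 to 276 CPM in tumors and was not called (log2 fold change 0.27, SE 0.16, adjusted p = 0.183). It was called higher without tumor 1 (0.42, adjusted p = 0.041), tumor 5 (0.40, adjusted p = 0.054) or benign sample 1 (0.39, adjusted p = 0.062), and was 0.15 without benign samples 3, 4 and 6 (adjusted p = 0.548). Of 7 repressor and degradation genes tested, 3 were higher, 2 were lower and 2 were not called. Of all genes tested, 28.2% were called higher and 34.8% lower. Atxn1 rose by 1.63 (SE 0.16, adjusted p = 2.6e-06) and Atxn1l by 0.62 (SE 0.11, adjusted p = 3.5e-04), and both encode partners of Capicua that stabilize it. Ddb1, a ligase subunit and the other higher gene, rose by 0.58 (adjusted p = 0.0016). Det1 was -0.73 (SE 0.15, adjusted p = 0.0011) and Cop1 -0.35 (SE 0.13, adjusted p = 0.038), both lower in tumors, and the call of Cop1 was lost without tumor 1, 2, 3 or 5, where its adjusted p-value was 0.107 to 0.143, and without benign sample 6 its log2 fold change was -0.23.

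Of 16 genes of the cascade from SHC and GRB2 to ERK and its RSK kinases, 5 were higher, 5 were lower and 6 were not called, with a median of -0.01. Both counts were near the background shares of 28.2% higher and 34.8% lower over all genes tested. The largest rises were those of Rps6ka1, the gene for RSK1 (1.74, SE 0.41, adjusted p = 0.0029), and Mapk3, the gene for ERK1 (0.78, SE 0.12, adjusted p = 9.3e-05). Among the lower genes, Map2k2, the gene for MEK2, had a log2 fold change of -0.50 (SE 0.12, adjusted p = 0.0042). The lower count was 3 with total counts in place of TMM and without tumor 3 or 4, and 2 without benign samples 3, 4 and 6. The higher count was 7 with total counts and with genes kept at 1 count in total. Of 6 coactivators and partners, the acetyltransferase genes Ep300 (0.96, SE 0.16, adjusted p = 2.5e-04) and Crebbp (0.32, SE 0.12, adjusted p = 0.034) were higher. These 2 of 6 stand beside the background share of 28.2%. Srf, the serum response factor that Elk1 and Elk3 bind beside, was called lower (-0.30, SE 0.15, adjusted p = 0.0997) and lost its call in 11 of the 12 fits without 1 sample, where tumor 1 mattered most (-0.16).

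Genes described as targets of PEA3 factors did not move one way. Of 13 tested, 4 were higher, 8 were lower and Cxcr4 was not called, with a median of -2.41. Over all genes tested, 28.2% were called higher and 34.8% lower, and the number of targets higher (4) was near that share. Spp1, the gene for the secreted protein osteopontin, was the most increased (3.79, SE 1.05, adjusted p = 0.0077), with 5.56 to 114 CPM in benign tissue and 82.8 to 2693 CPM in tumors. Dusp6, the phosphatase that switches ERK off, followed (3.65, SE 0.18, adjusted p = 6.5e-09), with 61.3 to 74.5 CPM in benign tissue and 621 to 1214 CPM in tumors, which did not overlap. The other higher genes were Spry2 (1.63) and Spry4 (1.42), which encode feedback inhibitors of receptor signaling. The largest falls were those of the mucin gene Muc4 (-7.18, SE 0.83, adjusted p = 9.8e-06; 2.84 to 33.5 CPM in benign tissue, 0 in 4 tumors and at most 0.439 CPM in the other 2) and the receptor gene Ret (-4.56, SE 0.42, adjusted p = 1.2e-06). The lower genes also included the matrix protease genes Mmp3 (-2.41), Mmp9 (-2.77) and Mmp14 (-1.54), and Vim (-3.61), Icam1 (-2.87) and Bcl6b (-3.27), which stromal or endothelial cells express, beside the falls of the fibroblast and endothelial markers given above. Mmp13 and Ptgs2, also on this list, were under the filter on low counts. Mmp13 was 0 to 0.741 CPM in benign tissue and 0.511 to 9.90 CPM in tumors, and Ptgs2 0.178 to 1.78 and 0.329 to 3.71 CPM. With at least 10 counts required in every sample, the count of lower genes was 5. The count of higher genes was 6 under DESeq2, with genes kept at 1 count in total, and without benign samples 3, 4 and 6.

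Of 8 genes described as targets of the ternary complex factors, 2 were higher, 5 were lower and Egr1 was not called, with a median of -0.46. The background shares over all genes tested were 28.2% higher and 34.8% lower, and the number of targets higher (2) was near its share. Ier2 (0.68, SE 0.22, adjusted p = 0.018) and Junb (0.51, SE 0.25, adjusted p = 0.095) were higher, and Junb lost its call in 7 of the 12 fits without 1 sample. Egr2 (-2.95, SE 0.48, adjusted p = 1.7e-04) and Fosb (-2.38, SE 0.76, adjusted p = 0.017) fell the most. The count of lower genes was 3 without benign sample 2 or 6, without tumor 1, 4, 5 or 6, and without benign samples 3, 4 and 6, where the count of higher genes was 0.

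The genes whose levels were most like those of the PEA3 members within groups were found by Pearson's r of log2 CPM over the 12 samples after each group's mean was subtracted. For Etv5 they were Aurkb (r = 0.97), Chtf18 (0.96) and Cdc20 (0.96), of which Aurkb and Cdc20 act in mitosis and Chtf18 in DNA replication. In benign samples 3 and 5, where Etv5 and Etv4 were highest, Aurkb was 47.8 and 41.8 CPM, against 2.66 to 19.2 CPM in the other benign samples, and its group means were 21.2 ± 19.4 and 21.7 ± 3.91 CPM. Aurkb itself was not called between tumors and benign tissue (0.03, SE 0.57, adjusted p = 0.975). For Etv4 they were Tuba1b (r = 0.98), Apex1 (0.97) and Pum3 (0.95), the genes for a tubulin, a DNA repair enzyme and an RNA-binding protein, and Tuba1b was also highest in benign samples 3 and 5 (1105 and 1025 CPM against 516 to 681 CPM). For Etv1 they were Fam161a (r = 0.87), Lpin3 (0.85) and Zkscan4 (0.85), and none of these rose with Etv1 between the groups. Within the groups Etv4 and Etv5 had r = 0.62 over the 12 samples, Etv1 and Etv5 0.10 and Etv1 and Etv4 -0.15 over the same samples. For Etv4 and Etv5 the benign samples alone gave r = 0.82 and the tumors alone -0.47. These correlations are descriptions over samples that share library depth and tissue makeup. The most similar genes were picked as the highest r over all genes tested, so high values are partly a matter of selection.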

How the data were processed

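RNA was sequenced from 6 tumors and 6 benign samples, grouped by their titles. The study's methods describe poly A enrichment, the labels name a directional library kit, and the submitters' processing notes name Trim Galore, Salmon and DESeq2 and the build mm10, while versions and annotation are not given in the sources used here. The deposited values are estimated counts, whole and unscaled, 1 per gene and sample, with row sums of at least 5. Libraries held 5240853 to 8588567 counts. Over the 15 pairs of replicates in each group, the lowest chi-square per degree of freedom was 13.0 for benign samples and 16.6 for tumors.

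From the deposited counts, edgeR 4.0.16 (R 4.3.3; filterByExpr by group, minimum count 10, minimum total 15; TMM; two-sided quasi-likelihood test) tested 13191 genes with Benjamini-Hochberg adjustment, read at 0.1. Exact permutation tests used log2 CPM with 2 added counts. The script was tested on simulated data in which few genes changed, as many up as down. In the real data 63.0% of the genes tested were called, and the simulation did not cover such a shift. The members and lists were chosen with earlier results of these data known. Named genes are the members, Erbb2, Cic, in each list the 2 called genes that rose most and the 2 that fell most (mean at least 10 CPM in the higher group), and for each PEA3 gene the 3 genes most like it. A gene that this rule names is not reported here. Lengths and loci came from GENCODE M21 (GRCm38), promoter windows from RefSeq (GRCm38.p6). The alternatives were DESeq2 1.42.0, other scaling, filters and threshold, leaving out samples, a block for the replicate number, and 0.5 added counts. The ratio to epithelial markers and the transcript length were added after seeing the data.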

Additional observations from a re-analysis of the deposited data

Results flagged for a closer look

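In each group of 6 samples, the highest or lowest value of each member, and of Erbb2, was compared with its nearest neighbour by Dixon's ratio. Of 22 groups examined 3 held a value that stood apart, and chance alone marks about 1 group in 20. The values were 119 CPM of Etv4 in tumor 5, 396 CPM of Ets1 in benign sample 1 and 121 CPM of Elf1 in benign sample 1. Without tumor 5 the log2 fold change of Etv4 was 1.79 (adjusted p = 0.0066 by edgeR). Without benign sample 1 that of Ets1 was -0.83 and that of Elf1 was 0.67. Benign sample 1 also had the high lymphocyte marker sum of 873 CPM, whose part in the Ets1 and Elf1 values was not tested.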

How the results depend on the processing

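The counts of members called higher (5) and lower (3), and of PEA3 genes called higher (3), kept within 1.5 times their value under every alternative run. Etv1, Etv4, Etv5, Ets1, Ets2, Elk3 and Etv6 kept their direction and call under DESeq2 (except Ets1, for which it gave no adjusted p-value), upper-quartile scaling, total counts, both filters on low counts, the threshold of 0.05, the replicate block and leaving out any sample or benign samples 3, 4 and 6. Leaving out 1 sample at a time gave 5.88 to 6.18 for Etv1, 1.79 to 2.32 for Etv4, 3.70 to 3.99 for Etv5 and -1.83 to -0.83 for Ets1. With the replicate block Gabpb1 was 0.38 and lost its call (adjusted p = 0.119), and the block changed no other member's call. The replicate numbers do not pair the samples, since the study's methods state that the tumors and the benign tissue sequenced came from different mice. Same-numbered deviations correlated at -0.12 to 0.10, over 0.1 in 1 of 6 pairs. Of 6 benign samples, 0 correlated best with the tumor of the same number. Such deviations also carry tissue makeup, so these correlations alone could not decide pairing. Elf1 gained a call under DESeq2 (adjusted p = 0.083), with genes kept at 1 count in total (0.056), with 10 or more counts in each sample (0.087), and without benign sample 1 (4.5e-04), tumor 1 (0.069) or tumor 5 (0.084). Relative to the epithelial marker sum, 4 members reversed direction: Elk1 (-1.19), Etv6 (-0.27), Gabpb1 (-0.89) and Elf1 (-0.82), since the sum itself rose by 1.27 on the log2 scale. Within tumors, r of Elf1 with Erbb2 was 0.04 and became -0.057 with total counts. Without tumors 3 and 4, over 4 tumors and with no test, r changed sign for Elf1 (-0.985), Etv1 (0.993) and Etv6 (0.331). Cic gained a call with genes kept at 1 count in total (adjusted p = 0.081). The counts of lower and higher ternary complex factor targets were 3 and 1 at the threshold of 0.05.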
